A study of Arabidopsis thaliana with 2 samples.

Results

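The xyloglucan endotransglucosylase/hydrolase (XTH) genes of Arabidopsis thaliana were examined in RNA from whole seedlings of an ARF18 overexpression line, 35SARF18OE-2 (ARF18 under the constitutive 35S promoter, by the line's name), and of wild-type Columbia (Col), its background. Each genotype had 1 library. By 1 label the seedlings were 7-day-old; by another they spent 4 days in the dark and 7 more under white light, and the labels do not settle which holds. A single line, number 2 by its name, stood for the overexpression. ARF18 belongs to the auxin response factors, which bind promoters of auxin-regulated genes. The members were the nuclear genes whose protein database match in the authors' table names a xyloglucan endotransglucosylase, a xyloglucan endotransglycosylase or a xyloglucan:xyloglucosyl transferase. They were 27 of the 21825 loci in the table (28 of 24295 transcript models), and 26 of them had a mean of 1 RPKM or more over both libraries. RPKM, a measure of level, divides a read number by transcript length and by the size of the library. All 27 carried an XTH number as symbol or synonym in the reference annotation. Of the 33 XTH numbers known in this species, XTH1, XTH2, XTH3, XTH11, XTH25 and XTH29 had no row and were not analysed here.

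Xyloglucan is the main hemicellulose of the primary cell wall in Arabidopsis and binds to and lies between cellulose microfibrils. XTH enzymes are secreted to the wall, where they cut a xyloglucan chain and join the new end to another chain, and a few members can pass it to water instead, which breaks the chain. They are known for their part in loosening and rebuilding the wall of growing cells, and single members are known to respond to auxin, brassinosteroid, light or touch.

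Members of glycoside hydrolase family 16, to which XTH enzymes belong, share a short catalytic stretch with a pair of glutamates, and its codons are shown to let the members be told apart at the site they have in common. Each line gives 30 bases of coding sequence, 5′ to 3′ on the gene's strand, 10 codons in all, starting with the codon before the first conserved aspartate. Capitals mark the codons of both catalytic glutamates. The sequences were read from the reference genome, TAIR 10.1 of RefSeq. The first 9 lines are the XTH genes known from roots the next 5 are the most abundant members outside that list, and the last is XTH32, of the same subgroup as XTH31.
XTH12: tgggatGAGattgatttcGAGttcttgggt
XTH13: tgggatGAAatcgacttcGAGttcttgggt
XTH14: tgggatGAGattgacttcGAGtttttggga
XTH17: tgggatGAGatcgatttcGAGttcttggga
XTH18: tgggatGAGattgatttcGAGttcttagga
XTH19: tgggatGAGattgatttcGAGtttttgggg
XTH20: tgggatGAAatagattttGAGttcttggga
XTH21: tgggacGAGatagatttcGAGtttttgggg
XTH26: cacgatGAGatagacttcGAGttcctagga
XTH31: cacgatGAGgtcgatatcGAGtttctaggg
XTH4: catgacGAGatagactttGAGttccttgga
XTH7: cgagacGAGcttgattttGAGttcttagga
XTH24: tgggatGAGattgattttGAGttcttgggt
XTH28: catgacGAGattgattttGAGtttttgggg
XTH32: catgatGAGgtagacataGAAtttttgggg
The stretch lay at chr1:24257679-24257708 in coding exon 2 of XTH17 (plus strand), at chr5:23301145-23301174 in coding exon 2 of XTH12 (minus strand) and at chr3:16447882-16447911 in coding exon 3 of XTH31 (minus strand). A search pattern that asks for isoleucine or leucine after the first glutamate found the stretch in 23 members. A pattern open at that residue, chosen after the first result, found it in 25, and XTH9 and XTH33 matched neither. The stretch lay within 1 exon in all 25, no pair of members had the same bases, and 15 of the 30 bases were shared by all 25. In 11 members the first of the 10 codons was tgg, for tryptophan. These were XTH12, XTH13, XTH14, XTH17 to XTH24, and 8 of the 9 root genes were among them. By this grouping, made after the values were seen, 9 of the 11 had count ratios (overexpression over wild type) above 1, as did 10 of the 13 expressed members with another first codon. Among all expressed nuclear genes 53.9% had ratios above 1, and among those of the members' lengths 70.7%. By this measure neither group stood far from genes of like length. On the log2 scale described further on, 5 of the 11 and 2 of the 13 were at least 1.5-fold higher. The shares were 6.24% of all expressed genes and 7.56% of those of like length. Of these 2, XTH26 was counted as expressed only through the overexpression library. Intervals for counting error lay above 1 for 7 and 6 members, where the shares were 18.7% and 28.1%. They lay below 1 for 1 and 3, where the shares were 15.6% and 5.07%.

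ARF18 itself had 472 counts in the overexpression library and 97 in wild type, a count ratio of 5.03 (95% exact conditional binomial interval 4.04 to 6.33). Count ratios here are overexpression over wild type, scaled to the library totals of 6824188 and 7059226 counts. Their intervals cover counting error only, not the spread between plants, and with 1 library per genotype no difference had a replicate check or a test. In RNA of whole seedlings, fewer cells of a type and less RNA per cell cannot be told apart.

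The family ran from under 1 RPKM to well over 100 RPKM, and its most abundant members set its total. XTH31, a member with known xyloglucan hydrolase activity, had 14572 counts (1677 RPKM) in the overexpression library and 13783 (1534 RPKM) in wild type. It ranked 43rd among nuclear genes by RPKM in the overexpression library and 40th in wild type, and held 40.4% of the family's counts in the overexpression library and 38.7% in wild type. Next came XTH4, XTH7 and XTH24 (also MERI5, known from meristems), described further on. These 4 genes made up 77.5% of the family's counts in the overexpression library and 79.3% in wild type. XTH20 and XTH28 also lay above 100 RPKM in both libraries. By mean RPKM the order was XTH31, XTH4, XTH7, XTH24, XTH20 and XTH28, and XTH4 and XTH7 changed places between the libraries, XTH4 being the higher in the overexpression library and XTH7 in wild type. At the other end XTH6 had 1 count in the overexpression library and 2 in wild type, fewer than the 3 counts taken as a floor, so no fold is given for it.

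**Figure D1:**
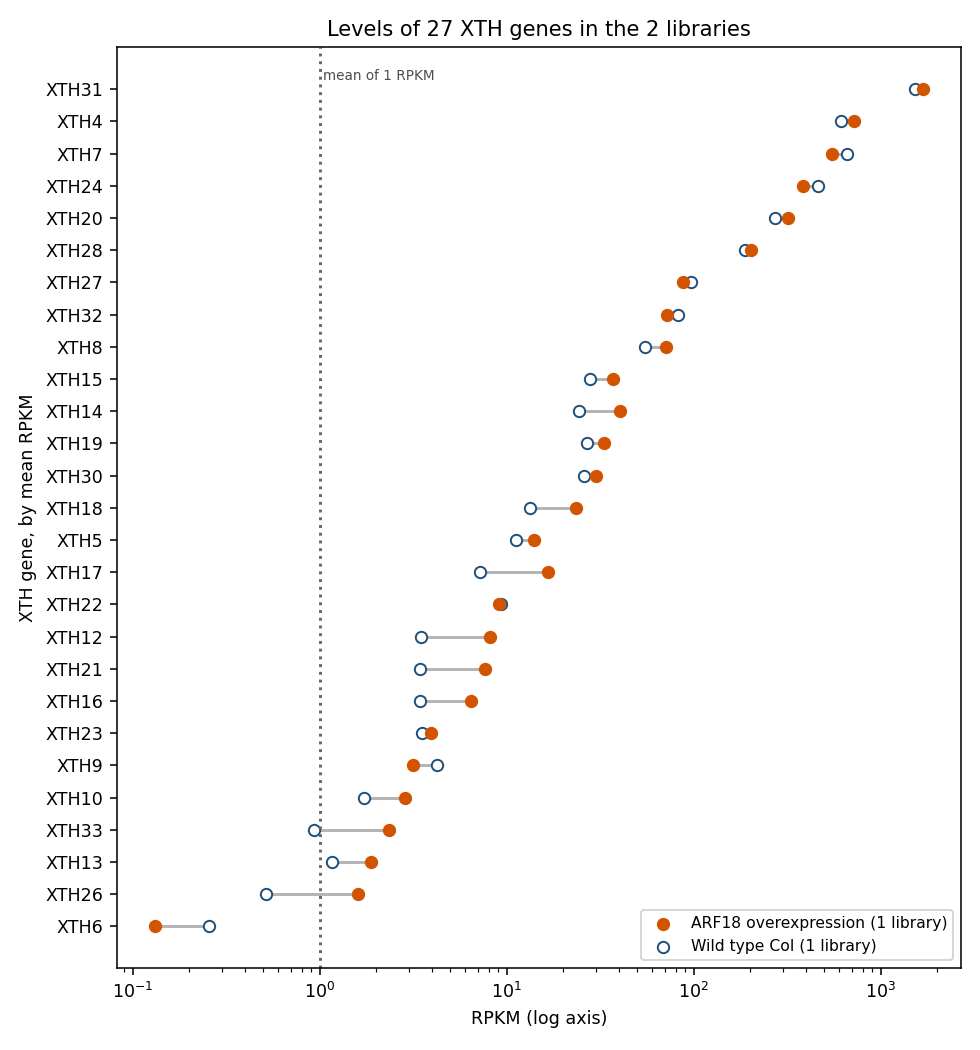
RPKM (log axis) for each of the 27 XTH genes, in order of level, with filled points for the overexpression library and open points for the wild-type library. XTH31 lies at 1677 and 1534 RPKM, and the widest gaps between points are seen among genes under 20 RPKM, such as XTH17 and XTH12.

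Summed over the family, the 2 libraries were close. The 27 genes had 36064 counts in the overexpression library, 0.528% of its total (exact binomial interval 0.523 to 0.534), and 35615 counts in wild type, 0.505% (0.499 to 0.510). The ratio of the sums was 1.05 (1.03 to 1.06). Expressed genes within the range of the members' transcript lengths, 855 to 1392 bases, had a summed ratio of 1.09 over 4420 genes, so the family's total stood no higher than that of genes of like length. Without XTH31 the ratio was 1.02 (0.999 to 1.04), and without the 4 most abundant members 1.14 (1.102 to 1.174).

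Single members differed from each other much more than this total shows. On the scale of log2 of (RPKM + 1), which understates differences of low genes, 2 of the 26 expressed members were at least 2-fold higher in the overexpression library, XTH17 and XTH12, against 1.25% of all 15083 expressed nuclear genes and 0.995% of the 4420 of the members' lengths. None was 2-fold lower, where the shares were 0.663% and 0.385%. At 1.5-fold, 8 members were higher and none lower, against 6.24% and 4.71% of all expressed genes. Among genes of the members' lengths the shares at 1.5-fold were 7.56% higher and 2.51% lower. XTH26 and XTH33 were among the 8 and had under 1 RPKM in wild type, so they were counted as expressed only through the overexpression library, and without them 6 of 24 members were 1.5-fold higher. The median log2 ratio over the 26 members was 0.29, against 0.03 over all expressed genes and 0.17 over those of the members' lengths. Count ratios were above 1 for 20 of the 26 and below 1 for 6, against 53.9% above 1 over all expressed genes and 70.7% over those of like length. Without XTH26 and XTH33 the median was 0.26, and 18 of 24 count ratios were above 1. Counting intervals lay wholly above 1 for 13 members and wholly below 1 for 4, against 18.7% and 15.6% of all expressed genes and 28.1% and 5.07% of genes of like length. Such counts grow with the number of reads.

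**Figure D2:**
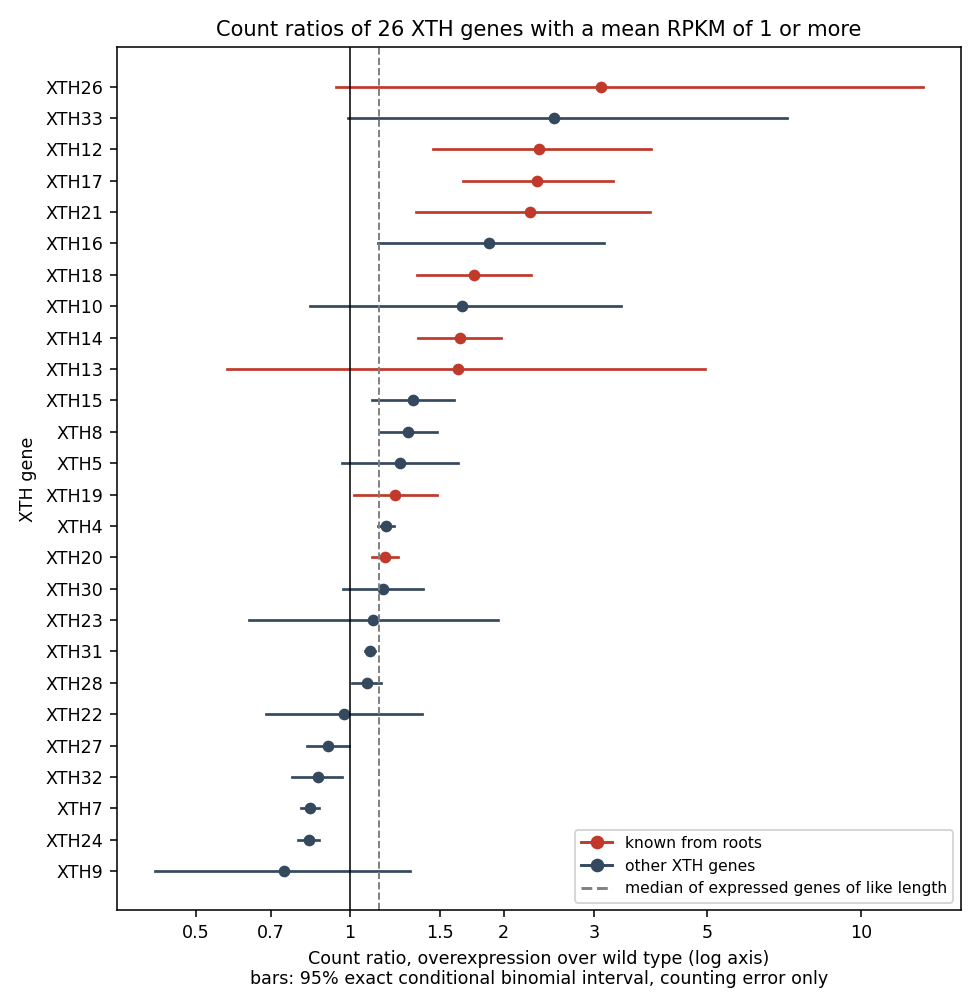
Count ratios of the 26 expressed XTH genes (log axis), with 95% exact conditional binomial intervals for counting error; red marks the XTH genes known from roots. The 9 red points all lie above 1, between 1.17 and 3.10, and XTH27, XTH32, XTH7 and XTH24 have intervals below 1.

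The XTH genes known from roots had higher ratios than most other members. All 9 had count ratios above 1, 7 with intervals wholly above 1, and 6 were at least 1.5-fold higher on the log2 of (RPKM + 1) scale. Over all expressed genes 18.7% had intervals above 1 and 6.24% were 1.5-fold higher, and over those of the members' lengths 28.1% and 7.56%. The 7 intervals above 1 became 6 with TMM scaling, without XTH19, and 5 with adjustment for length, without XTH19 and XTH20. With TMM scaling the share above 1 was 16.3% over all expressed genes and 24.0% over those of the members' lengths. With adjustment for length these shares were 10.8% and 12.1%. The 6 root XTH genes at 1.5-fold became 4 with adjustment for length, against 3.05% of all expressed genes. Without XTH26, which had under 1 RPKM in wild type, 5 of 8 were 1.5-fold higher before that adjustment and 3 of 8 after it. The counts of the 9 summed to 3416 in the overexpression library and 2776 in wild type, a ratio of 1.27 (1.21 to 1.34). Their median log2 ratio was 0.76, or 0.73 over 8 without XTH26. The other 17 expressed members had a median of 0.13, with 11 ratios above 1 and 6 below, and the difference between the sets had no test. The list was drawn up with an earlier result for XTH17 known, so it is no independent sign of direction.

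XTH17 (AT1G65310, chr1:24257216-24258506, plus strand, 3 exons), a gene of the root elongation zone that is also known from shade growth of petioles, had 119 counts (16.6 RPKM) in the overexpression library and 53 (7.16 RPKM) in wild type. Its ratio was 2.32 (1.67 to 3.27). XTH18, its nearest relative with 92.2% identity in coding sequence, had 167 counts (23.4 RPKM) against 99 (13.4 RPKM) in wild type, and a ratio of 1.74 (1.35 to 2.26). XTH19, an auxin-induced gene with 89.2% identity to XTH18, had 254 counts (33.0 RPKM) against 214 (26.9 RPKM) in wild type, a ratio of 1.23 (1.02 to 1.48). XTH20, the most abundant of the set, had 2446 counts (319 RPKM) against 2162 (273 RPKM) in wild type, a ratio of 1.17 (1.104 to 1.24). The intervals of XTH17 and XTH20 did not overlap, and both genes have tgg as the first codon of the stretch shown above. Of the stretches of 50 bases in the transcripts of XTH17, XTH18 and XTH19, 0.194%, 1.57% and 1.63% occur also in another of the 3, so reads shared among them could touch only a small part of each gene at that read length. The sources used here do not state the read length.

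XTH12 (AT5G57530, chr5:23300321-23301689, minus strand) had 59 counts (8.14 RPKM) in the overexpression library and 26 (3.47 RPKM) in wild type, a ratio of 2.35 (1.46 to 3.88). Its neighbour XTH13, 1097 bases away with 89.7% coding identity, had 11 counts (1.89 RPKM) against 7 (1.16 RPKM) in wild type, too few to place its ratio of 1.63 (0.575 to 4.95). XTH14 had 298 counts (40.1 RPKM) in the overexpression library and 188 (24.5 RPKM) in wild type, a ratio of 1.64 (1.36 to 1.98). The intervals of XTH12 and XTH14 exclude 1 and that of XTH13 does not. XTH21 (AT2G18800, chr2:8144881-8146477, plus strand), known for a role in primary root growth, had 50 counts (7.69 RPKM) against 23 (3.42 RPKM) in wild type, a ratio of 2.25 (1.35 to 3.86). Of its 50-base stretches, 7.15% occur also in the transcribed pseudogene AT2G12660, so its counts are uncertain to that extent. XTH26, known from root hairs and root epidermis, had 12 counts (1.60 RPKM) in the overexpression library and 4 (0.517 RPKM) in wild type, a ratio of 3.10 (0.941 to 13.2) that counting error does not place on either side of 1. In the authors' deposited table, XTH12, XTH17 and XTH21 were the members at least 2-fold higher at an FDR of 0.05 or less, with FDR values of 0.00192 for XTH12, 2.37e-06 for XTH17 and 0.00828 for XTH21. A test of this kind compares the reads of these libraries and not the genotypes. Of nuclear loci in the authors' deposited table, 0.835% were higher by this rule and 0.835% lower, and no member was lower.

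Root marker genes were also mostly higher in the overexpression library, and their part in the XTH values was not tested. Of 20 root markers, all detected in both libraries, 14 had ratios above 1, against 53.9% of all expressed genes. At 1.5-fold, 6 were higher and 2 lower, against 6.24% and 4.71%, and the median log2 ratio of the markers was 0.24. Adjusted for transcript length, as described further on, 4 were higher and 1 lower, against 3.05% and 4.83%. WER, with 15 counts (2.69 RPKM) in the overexpression library and 5 (0.868 RPKM) in wild type, was among the higher markers both times. Like XTH26, WER was counted as expressed only through the overexpression library. The RPKM of the 20 markers summed to 9443 in the overexpression library and 11019 in wild type. That sum was led by PYK10, a root beta-glucosidase at 8523 RPKM in the overexpression library and 10247 RPKM in wild type. Without PYK10 the sums were 920.3 RPKM in the overexpression library and 772 RPKM in wild type. The markers at least 2-fold apart on the log2 of (RPKM + 1) scale were TIP2;3, WOX5 and LRX1. TIP2;3, a tonoplast aquaporin gene, had a count ratio of 2.74 (1.96 to 3.89). WOX5, of the root stem cell niche, had 2.59 (1.42 to 4.95), and LRX1, of the root hair wall, 0.389 (0.319 to 0.473). WER had a count ratio of 3.10 (1.07 to 10.9) but a log2 ratio of 0.98 on that scale. The markers went in both directions, with 14 ratios above 1 and 6 below. Green shoot markers were detected in both libraries too, with a median log2 ratio of -0.08 over 11 genes and summed RPKM of 6735 in the overexpression library and 7110 in wild type.

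The abundant members outside the root list differed little, and in both directions. XTH4, known from expanding organs and from the vascular cambium, had 5966 counts (720.1 RPKM) in the overexpression library and 5251 (613 RPKM) in wild type, a count ratio of 1.18 (1.13 to 1.22). XTH7 had 4269 counts (551 RPKM) against 5291 (659.8 RPKM) in wild type, a ratio of 0.835 (0.801 to 0.869). XTH24 had 3144 counts (382 RPKM) against 3914 (459 RPKM) in wild type, a ratio of 0.831 (0.793 to 0.871). XTH4 was thus higher and XTH7 and XTH24 lower in the overexpression library. Adjusted for transcript length, as described further on, the log2 ratio was 0.09 for XTH4, -0.44 for XTH7 and -0.41 for XTH24. XTH24 is the neighbour of XTH18 at a distance of 5161 bases, and its ratio lies on the other side of 1. XTH9, which is known like XTH4 from stems, had 23 counts (3.14 RPKM) against 32 (4.22 RPKM) in wild type, with an interval of the ratio, 0.415 to 1.31, that included 1.

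The subgroup known as III-A holds the members with hydrolase activity, and its 2 genes differed in direction. XTH31 was slightly higher, with a ratio of 1.09 (1.07 to 1.12). XTH32, its closest relative at 68.6% coding identity, had 573 counts (71.6 RPKM) in the overexpression library and 686 (82.8 RPKM) in wild type, a ratio of 0.864 (0.772 to 0.967). XTH32 was the only member with 2 transcript models, and its second model had 2 counts in the overexpression library and 1 in wild type. In subgroup III-B, XTH28, known from stamen growth, had 1873 counts (204 RPKM) against 1796 (189 RPKM) in wild type, a ratio of 1.08 (1.01 to 1.15). XTH27, known from tracheary elements of leaf veins, had 826 counts (87.5 RPKM) against 945 (96.8 RPKM) in wild type, a ratio of 0.904 (0.823 to 0.994). XTH30 had 265 counts (29.9 RPKM) against 236 (25.8 RPKM) in wild type, a ratio of 1.16 (0.971 to 1.39). None of these 5 genes was 1.5-fold apart.

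XTH22 and XTH23, known for quick responses to touch and hormones, had count ratios with intervals that included 1. XTH22, the touch gene TCH4, had 66 counts (9.06 RPKM) in the overexpression library and 70 (9.28 RPKM) in wild type, a ratio of 0.975 (0.686 to 1.39). XTH23, its closest relative at 82.4% coding identity, had 29 counts (3.93 RPKM) against 27 (3.54 RPKM) in wild type, with an interval of 0.635 to 1.95. XTH23 ends 363 bases before XTH14, which had the ratio of 1.64 given above. Of the other touch genes, the calmodulin-like TCH2 had 260 counts against 266 in wild type, and the calmodulin gene TCH1 had 48 against 29, a ratio of 1.71 (1.06 to 2.82). TCH1 was the 1 of these 2 expressed touch genes that was 1.5-fold higher, against 6.24% of all expressed genes. The median log2 ratio of only these 2 genes was 0.35. Adjusted for transcript length, TCH1 had a log2 ratio of 0.46 and was no longer 1.5-fold higher, and the median was 0.13. TCH3 had no row.

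The remaining members were higher or within counting error. XTH16 had 47 counts (6.41 RPKM) in the overexpression library and 26 (3.43 RPKM) in wild type, a ratio of 1.87 (1.13 to 3.15). XTH15, its closest relative and a gene known from shade growth, had 268 counts (36.9 RPKM) against 209 (27.8 RPKM) in wild type, a ratio of 1.33 (1.103 to 1.60). Of the 50-base stretches of XTH15, 28.8% lie also in AT4G14120, which overlaps it on the opposite strand, and without knowing whether the counting used strand, reads of this overlap cannot be told apart. XTH8 had 552 counts (71.5 RPKM) against 439 (54.9 RPKM) in wild type, a ratio of 1.30 (1.15 to 1.48). XTH33, whose protein is known to be held at the plasma membrane, had 17 counts (2.33 RPKM) against 7 (0.928 RPKM) in wild type, a ratio of 2.51 (0.990 to 7.17). XTH10 had 24 counts (2.86 RPKM) against 15 (1.73 RPKM) in wild type, and XTH5 had 133 counts (14.0 RPKM) against 110 (11.2 RPKM) in wild type. XTH5, XTH10 and XTH33 had intervals that included 1.

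Ratios within the family were larger at lower levels. The 10 members with a mean of 1 to under 10 RPKM had a median count ratio of 1.76, or 1.64 over 8 without XTH26 and XTH33, which were counted as expressed only through the overexpression library. The 10 members from 10 to under 100 RPKM had a median of 1.28, and the 6 members at 100 RPKM or more one of 1.09. Among genes of the members' lengths the medians in the same bands were 1.12, 1.14 and 1.17. Spearman's rho between mean RPKM and log2 ratio was -0.51 over the 26 members, -0.42 over the 24 without XTH26 and XTH33, and 0.08 over the 4420 genes of like length. These are descriptions over genes of the same libraries, and the lowest members have the widest counting intervals.

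The log2 ratio depended on transcript length across all genes, and XTH transcripts are short. Their median length was 1109 bases for expressed members against 1415 for all expressed genes, and Spearman's rho between length and log2 ratio was -0.52 over all expressed genes. Subtracting the median of genes of like length, in 50 bins, left 5 members at least 1.5-fold higher, against 3.05% of all genes, and none lower, against 4.83%. They were XTH17 (log2 ratio 0.93 after the adjustment), XTH12 (0.85), XTH21 (0.77), XTH26 (0.63) and XTH33 (0.61). Without XTH26 and XTH33, which had under 1 RPKM in wild type, it was 3 of 24. No member was then 2-fold apart, where 0.55% of all genes were higher and 0.968% lower. The median over the 26 members became 0.16, with 19 values above 0 and 7 below, against 49.9% above 0 over all genes. Without XTH26 and XTH33 the median was 0.13, with 17 values above 0 and 7 below. The 9 root genes all had positive values, with a median of 0.58, and the other 17 had a median of 0.07. Without XTH26 the median of the root genes was 0.56. With GC content taken in as well, 5 members were 1.5-fold higher, or 3 of 24 without XTH26 and XTH33, and none lower, against 3.08% and 4.64% of all genes. None was then 2-fold apart, against 0.498% higher and 0.863% lower. The root markers had an adjusted median of 0.21. All 6 members below 0 lay further below it after the adjustment, XTH9 at -0.52, XTH7 at -0.44, XTH24 at -0.41, XTH32 at -0.35, XTH22 at -0.21 and XTH27 at -0.21, and XTH23 came to lie at -0.06, against 0.12 before it. Counting intervals shifted in the same way lay above 0 on the log scale for 9 members and below for 4, against 10.8% and 12.7% of all genes. XTH15, XTH19, XTH20 and XTH28, whose intervals lay on the higher side before the adjustment, were not among the 9.

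**Figure D3:**
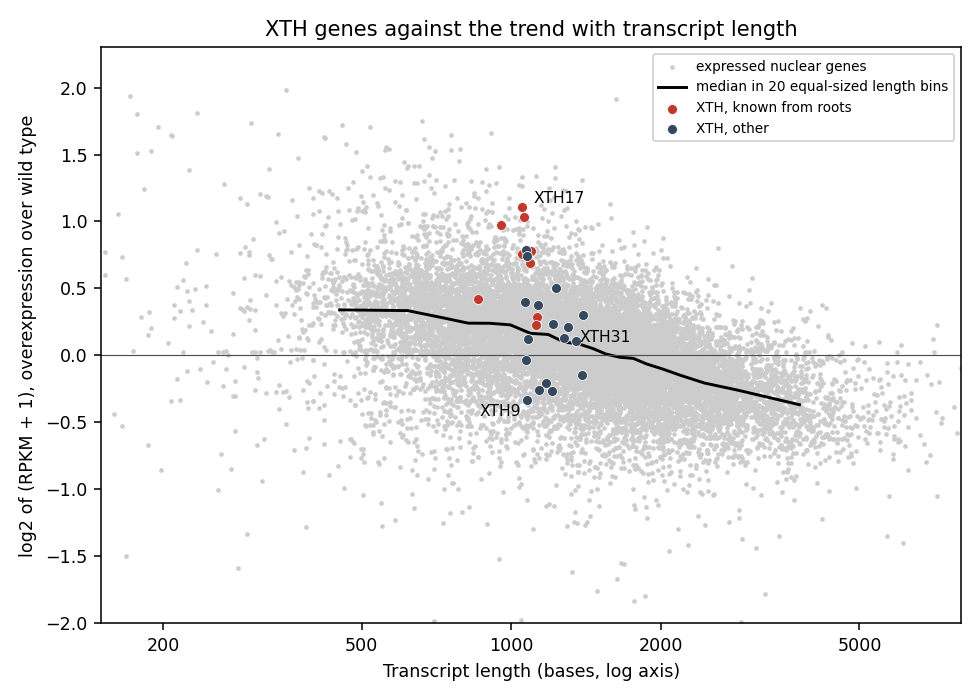
Log2 ratio of (RPKM + 1), overexpression over wild type, against transcript length in bases (log axis) for expressed nuclear genes (grey) and XTH genes (red for those known from roots, blue for the others); the line is the median in equal-sized length bins, and 91 genes lie outside the axes. The line falls with length, the 9 root XTH genes lie above it, and XTH9 lies lowest among the others.

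Genes that make and trim xyloglucan did not share the direction of the root XTH genes. Of 18 listed genes of xyloglucan synthesis, 14 were expressed, with a median log2 ratio of -0.08. None was 1.5-fold higher and 1 was 1.5-fold lower, against 6.24% and 4.71% of all expressed genes. Intervals lay above 1 for none and below 1 for 4, against 18.7% and 15.6%. CSLC5, a synthase of the glucan backbone, had 396 counts in the overexpression library and 672 in wild type, a ratio of 0.610 (0.537 to 0.691). XXT2, a xylosyltransferase and the gene of the list with the most reads, had 2167 counts against 2305, a ratio of 0.973 (0.917 to 1.03). Of 5 trimming enzymes, 3 had intervals below 1 and none above, beside the same 15.6% and 18.7%, and their median log2 ratio was -0.21. XYL1, the alpha-xylosidase of xyloglucan, had 4258 counts against 6659 in wild type, a ratio of 0.661 (0.636 to 0.687). It was the 1 trimming gene that was 1.5-fold lower, beside the same 4.71%. These transcripts are long, while the shares are over genes of all lengths. Adjusted for length the medians were -0.03 for synthesis and -0.0087 for trimming. CSLC5 was then at -0.45 and XYL1 at -0.30. No gene of either list was then 1.5-fold apart, against 3.05% of all genes higher and 4.83% lower.

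**Figure D4:**
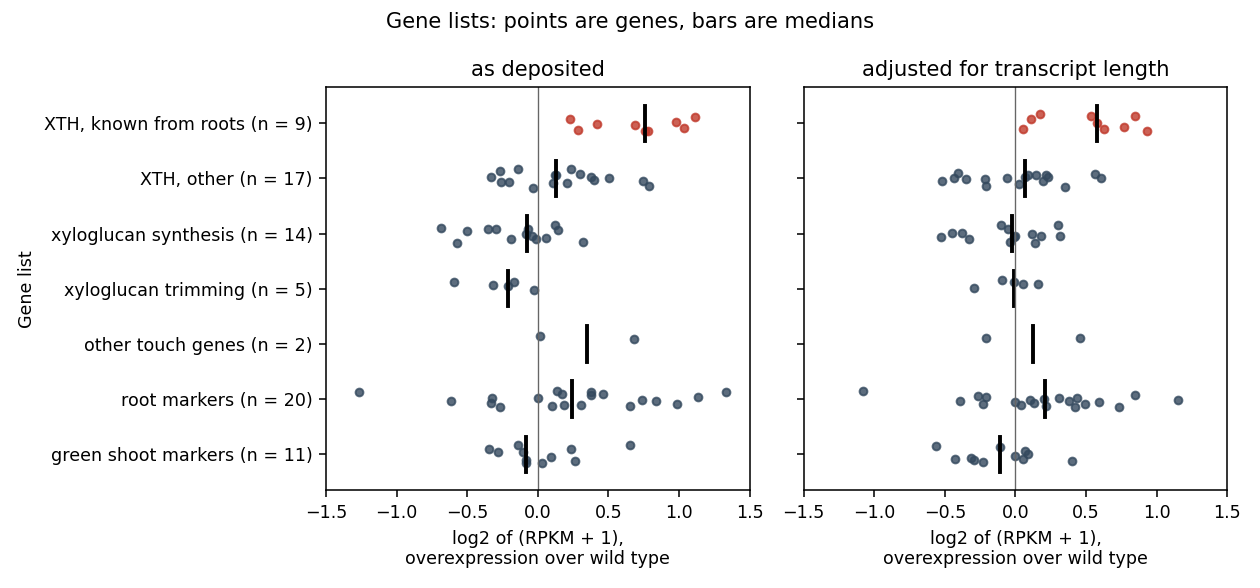
Log2 ratios of (RPKM + 1), overexpression over wild type, of single genes (points) and their medians (bars) in 7 gene lists, as deposited and adjusted for transcript length. The root XTH genes have the highest median in both panels, 0.76 and 0.58, and the xyloglucan lists lie near or below 0.

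TGTCTC and TGTCGG are known as auxin response elements, and each was found in 1 window before these genes. In the 250 bases before the outermost annotated start, on either strand, TGTCTC was found for 1 of 27 members (XTH6) against 10.9% of 27443 protein-coding genes. TGTCGG was found for 1 member, XTH20, against 4.18%. The G-box CACGTG was found for none, against 6.49%, and CGTGNG, which can overlap it, for 2 members (XTH8 and XTH23), against 12.5%. At shares this low, 27 windows are too few to set the family apart from other genes. The window of XTH20 at chr5:19481647-19481896 (plus strand, TAIR 10.1) is shown with its match in capitals, on the other strand to the gene, beside that of XTH17 at chr1:24256804-24257053 (plus strand), the member with the largest log2 ratio, which held none of the 4. The XTH17 window lies before another annotated model than the counted one, which starts at 24257216, so the bases between were not searched.
XTH20: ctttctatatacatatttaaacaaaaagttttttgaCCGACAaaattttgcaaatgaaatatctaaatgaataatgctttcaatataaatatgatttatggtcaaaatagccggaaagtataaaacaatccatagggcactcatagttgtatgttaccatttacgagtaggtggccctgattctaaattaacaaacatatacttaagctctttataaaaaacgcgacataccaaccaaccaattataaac
XTH17: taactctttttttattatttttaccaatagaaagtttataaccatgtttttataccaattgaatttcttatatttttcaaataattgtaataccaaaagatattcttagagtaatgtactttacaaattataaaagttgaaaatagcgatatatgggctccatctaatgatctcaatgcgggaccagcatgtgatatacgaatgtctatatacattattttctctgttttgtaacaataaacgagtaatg
A match is a run of letters and not a known site, and a window without one says nothing of other sequence near the gene.

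The deposited annotation gave the members 1 place in common and others that differed. All 27 were annotated to the extracellular region in the authors' table, and XTH33 alone as integral to membrane. An intracellular part was also given for XTH12, XTH13, XTH14 and XTH24, and a plastid for XTH4. Terms for response to hormone stimulus were held by 7 members, XTH4, XTH17, XTH18, XTH19, XTH20, XTH22 and XTH23. Their count ratios ran between 0.975 for XTH22 and 2.32 for XTH17.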

How the data were processed

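The table deposited by the authors holds, per the file headers, a raw count and an RPKM for each transcript model in 2 libraries. The submitters' processing notes name TAIR 10 as build; no source used here states the aligner, counter, strandedness or read length. The deposited RPKM were recomputed from counts, length and count total and differed by at most 3.2e-06 percent; an RPKM of 0.01 at 0 counts was set to 0. The deposited log2 ratio is that of the RPKM, and the deposited p-value and FDR come from an unnamed test on the reads.

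Counts and RPKM were added up over the models of each locus. The measure was log2 of (RPKM + 1), overexpression over wild type, for nuclear loci with a mean RPKM of 1 or more. With 1 library per genotype no test was made. Count ratios carry 95% exact conditional binomial intervals, for counting error only. To adjust for length, loci were put in 50 equal-sized length bins and each bin's median was taken off; a further step did the same by GC content, known for 15069 of 15083 expressed loci. TMM factors came from edgeR 4.0.16.

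Members and lists were chosen with earlier results of these data known. Of 91 listed loci, 87 carried the listed name in the reference. Every expressed member is given with its counts and RPKM, and ratios by rule for those 1.5-fold apart, the 3 most abundant and the groups compared. Of the xyloglucan and touch lists, genes 1.5-fold apart and the one with the most reads are named. Markers were named, after their values were seen, where 2-fold apart, leading the sum or under 1 RPKM in wild type. The grouping by the first codon of the stretch was also made then. Values without XTH26 and XTH33 were likewise added after seeing the data. Sequences came from TAIR 10.1, RefSeq. Steps were tested on simulated counts. Alternatives are given in the closing section. Python 3.11.15, numpy 2.4.6, pandas 2.3.3, scipy 1.17.1, biopython 1.88 and matplotlib 3.10.9 were used.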

Additional observations from a re-analysis of the deposited data

How the results depend on the processing

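No paired analysis was possible because there was 1 library of each genotype, so none could be left out either. The count of 2 members at least 2-fold higher depended on the pseudocount and scaling: it was 5 with 0.1 RPKM, 0 with 5 RPKM, 1 with median-centred ratios, 0 with the adjustment for length and 0 with that for length and GC content. The 5 included XTH26 and XTH33, counted as expressed only through the overexpression library. The share over all expressed genes was 1.25% at the main setting, 0.55% adjusted for length and 0.498% adjusted for length and GC content. This share was not computed for the other pseudocounts or for median-centring. The count of higher members was 8 at 1.5-fold, against 6.24%, and 13 by counting interval, against 18.7%. By counting interval 4 were lower in place of 0, against 15.6%. In the authors' deposited table it was 3. The count of 6 root XTH genes at least 1.5-fold higher, whose alternatives were chosen after seeing the data, ranged between 4 (adjusted for length) and 7 (0.1 RPKM, or by counting interval). The ratio of summed reads, 1.05, was 1.02 with TMM scaling, 1.01 with median-centring, 1.02 without XTH31 and 1.14 without the 4 most abundant members, these last 2 chosen after seeing the data. TMM and median-centred scaling took XTH19 and XTH28 out of the 13 members with intervals above 1. The adjustment for length took out XTH15 and XTH20 as well. No member whose interval excluded 1 changed sign under pseudocounts of 0.1 and 5 RPKM, TMM, median-centring, the adjustments or the use of 1 model per locus. The median log2 ratio, 0.29, lay between 0.15 and 0.31 under the alternatives. The ARF18 ratio was 4.92 with TMM and 4.87 median-centred. Depth limits the low members: XTH10, XTH13, XTH26 and XTH33, with 24 counts or fewer in each library, had intervals that included 1.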
